A study of Mus musculus with 6 samples.

Results

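The genes described here are 38 regulators and effectors of cell death, named by function: the BCL2 family, the caspases, the inhibitor of apoptosis (IAP) proteins, the adaptors of death receptors, and genes of necroptosis and pyroptosis. They were taken by gene name from a deposited table of 25416 genes, and each of the 38 names matched 1 row. The study reduced the mRNA of Setdb1, a gene for an enzyme that methylates histone H3 and silences chromatin, and sequenced polyadenylated RNA. All 6 libraries come from AML12, a cell line of hepatocytes from a mouse carrying a human TGF-alpha transgene, so that control cells carry it too. The siNC group (n = 3) received scrambled RNA and the siSetdb1 group (n = 3) an siRNA against Setdb1, each given as 50 nm in the labels, and RNA was taken after 72 h. Whether replicates were grown as separate cultures is not stated, and the p-values therefore rest on a spread between samples that may be technical. As the samples are bulk RNA, fewer cells that express a gene and less of its RNA per cell cannot be told apart.

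Apoptosis in hepatocytes runs along connected routes. On the mitochondrial route, proteins that share only the BH3 domain of the BCL2 family (BH3-only proteins) bind and block pro-survival members or activate the pore-forming members BAX and BAK, and cytochrome c leaves the mitochondria to activate the initiator caspase CASP9. On the receptor route, ligand-bound death receptors recruit FADD and CASP8, and in hepatocytes CASP8 cleaves the BH3-only protein BID to engage the mitochondria. IAP proteins restrain caspases or the complexes below tumour necrosis factor (TNF) receptors, necroptosis runs through RIPK1, RIPK3 and MLKL when CASP8 is blocked, and in pyroptosis inflammatory caspases cut gasdermin D into a membrane pore.

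Values are FPKM (reads scaled to the length of a gene's exons and to the library's total). They can be compared between genes as far as the annotated exon length holds for the transcripts present. Fold changes are log2 of siSetdb1 over siNC on the FPKM + 1 scale, which understates changes of genes with low values. A gene passed when its limma p-value, adjusted by the Benjamini-Hochberg method over all 12846 genes tested, was under 0.05. Setdb1 itself, on chromosome 3 (95323525 to 95357202, mm10), was at 8.41, 8.54 and 9.43 FPKM in siNC and at 4.29, 4.21 and 3.29 FPKM in siSetdb1. The libraries held 16790582 to 17835060 reads. The library siNC replicate 1 stood apart from the other siNC libraries on the first 2 principal components, and members whose calls change without it are given both ways. Over all genes tested, the log2 fold change correlated with transcript GC content (Spearman rho -0.27) and with exon length (0.209). Without siNC replicate 1 these values were -0.0524 and 0.144. Of the hepatocyte markers, Hnf4a (34.7 FPKM in siNC), Krt8 (1267 FPKM), Apoa1 (22.9 FPKM) and Alb (7.93 FPKM) were expressed. Cps1, Fga and Serpina1a were near 0 (means of 0.013 to 0.053 FPKM in siNC). The bile duct keratin gene Krt19 was at 1300 FPKM, and the bile duct gene Cftr was near 0 (0.0025 FPKM). Some markers moved between the groups: the hepatocyte genes Ttr (27.5 to 7.02 FPKM), Trf (23.9 to 8.67 FPKM) and Hpx (7.03 to 1.63 FPKM) fell, and the keratin gene Krt18 (1633 to 2012 FPKM) and the bile duct genes Krt7 (154.5 to 218.4 FPKM) and Sox9 (4.95 to 9.26 FPKM) rose (limma adjusted p of 0.000606 to 0.0364). Apoa1, Alb, Hnf4a, Krt8 and Krt19 did not pass (limma adjusted p of 0.0646 to 0.691). The part of these marker changes in the members' differences was not tested. Summed markers of endothelial cells and of stellate cells or fibroblasts were at most 0.193 and 1.22 FPKM in any library.

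The members spanned the range from absent to abundant mRNA. Gsdmd (gasdermin D) had the highest mean over the 6 libraries at 97.3 FPKM, above 96.2% of the genes tested. The pro-survival genes Bcl2l1 (82.6 FPKM) and Mcl1 (82.4 FPKM) followed, and none of these genes passed the test between the groups. Cycs, Casp8, Bak1, Bid, Bad, Xiap, Htra2, Tradd and Birc6 lay between 38.5 and 10.1 FPKM, 20 members lay between 9.77 and 1.27 FPKM, and Casp4 and Naip1 lay at 0.718 and 0.678 FPKM. Of the rest, Casp12 (0.373 FPKM), Diablo (0.340 FPKM), Bik (0.0548 FPKM) and Ripk3 (0.0287 FPKM) were under 0.5 FPKM in too many libraries to be tested. Of the 37 members whose values gave whole reads, the reads per library ranged from 0 for Ripk3 and Bik to 7143 for Bcl2l1.

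**Figure D1:**
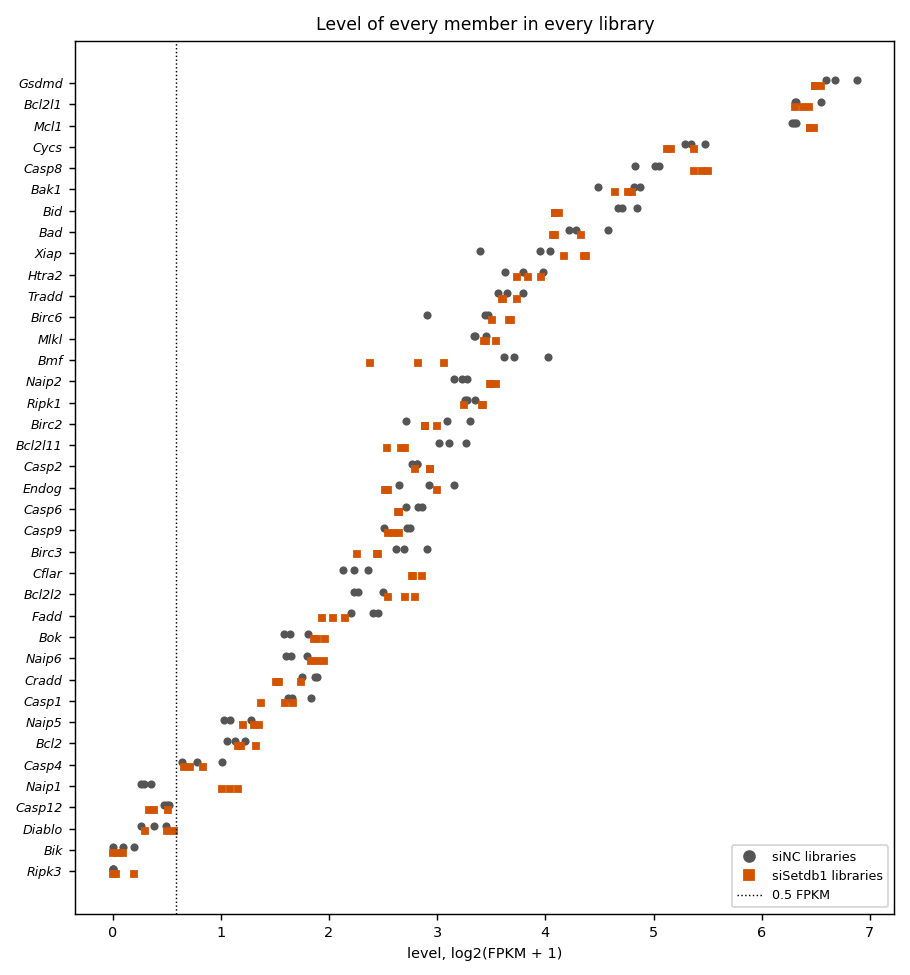
Level of each of the 38 members as log2(FPKM + 1) in each siNC library (grey circles) and each siSetdb1 library (orange squares), ordered by mean. Bid, Bmf and Bcl2l11 have their 3 siSetdb1 points left of the siNC points, Casp8, Cflar, Naip1 and Naip2 have them to the right, and the dotted line marks the filter at 0.5 FPKM.

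Of the 38 members, 34 were tested, 4 rose, 3 fell and 27 did not pass. The genes that rose were Casp8, Cflar, Naip1 and Naip2, and those that fell were the BH3-only genes Bid, Bmf and Bcl2l11. Across all genes tested, 6.87% rose and 8.27% fell, 15.1% together, against 11.8% and 8.82% of the tested members, so that the share that fell was close to that of all genes. Naip1 reached the filter only through its siSetdb1 libraries and so had to differ between the groups. The siSetdb1 and siNC values did not overlap for 18 tested members, 10 with siSetdb1 above and 8 below, where all genes tested gave 17.6% above and 21.6% below, 39.2% together. The median log2 fold change of the tested members was -0.004 and that of all genes tested -0.018, and the median size of change was 0.20 and 0.16. Among the 27 members that did not pass, the 95% interval of the log2 fold change reached 0.14 to 0.40 on either side of the estimate.

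**Figure D2:**
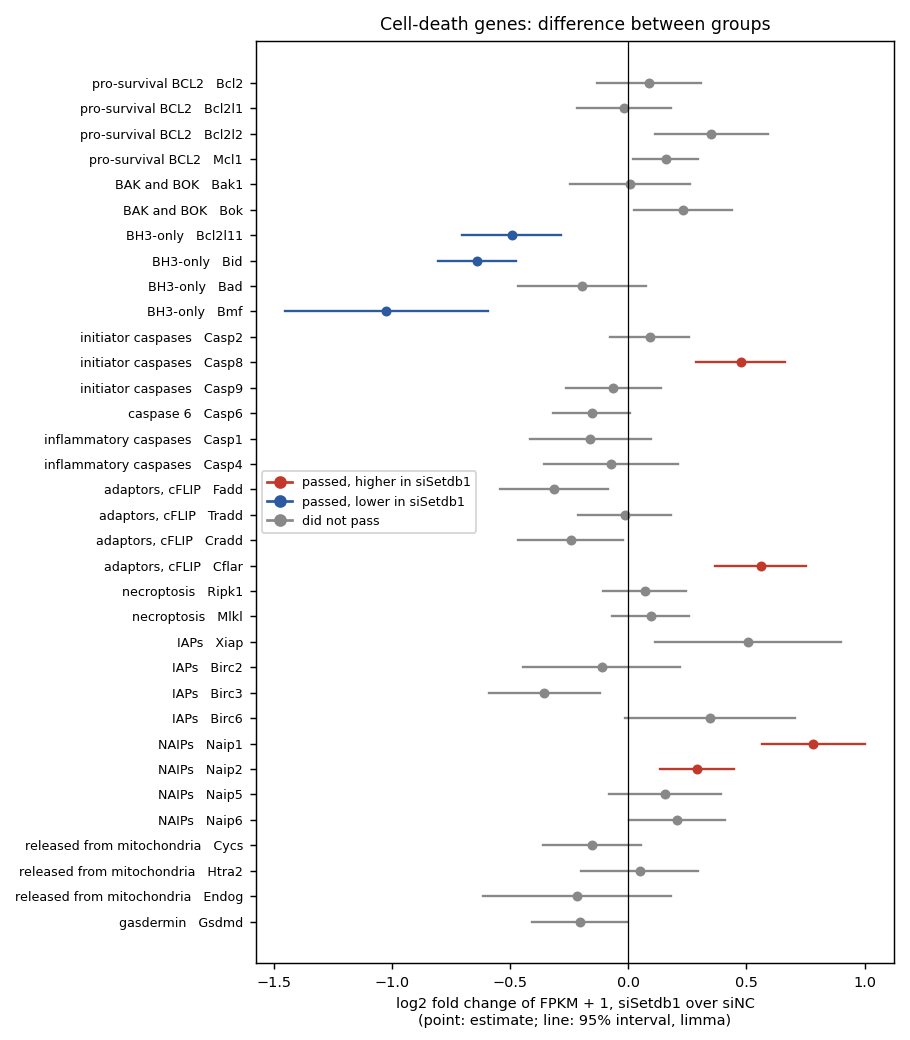
Log2 fold change (siSetdb1 over siNC, FPKM + 1) of the 34 tested members with its 95% interval, grouped by role. The 3 blue members (passed, lower) are the BH3-only genes Bid, Bmf and Bcl2l11, and the 4 red members (passed, higher) are Casp8, Cflar, Naip1 and Naip2.

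Of the 4 BH3-only members tested, Bid, Bmf and Bcl2l11 fell in siSetdb1 and Bad did not pass. The BH3-only genes Bbc3 and Pmaip1, induced by p53 and not among the members, did not pass either and had higher means in siSetdb1. Thus 3 of these 6 tested genes fell, where 8.27% of all genes tested fell. Bnip3 and Bnip3l, not counted among the 6, did not pass (limma adjusted p = 0.772 and 0.603). Bbc3 was at 9.59, 7.03 and 8.09 FPKM in siNC and 9.54, 10.4 and 10.8 FPKM in siSetdb1 (limma adjusted p = 0.11). Pmaip1 was at 21.9, 24.3 and 31.9 FPKM in siNC and 30.1, 27.6 and 32.6 FPKM in siSetdb1 (limma adjusted p = 0.315), and both genes overlapped between the groups. Bid, the BH3-only protein that links death receptors to the mitochondria, was at 27.8, 25.2 and 24.4 FPKM in siNC and at 16.5, 16.1 and 16.0 FPKM in siSetdb1. All siSetdb1 libraries lay below all siNC libraries, and the mean fell by 37.3%, from 25.8 ± 1.8 to 16.2 ± 0.3 FPKM (log2 fold change -0.64, SE 0.07, limma adjusted p = 0.0024). Bmf, a BH3-only protein held at the actin motor complex until cells lose attachment, was at 15.2, 12.1 and 11.3 FPKM in siNC and at 7.38, 4.21 and 6.07 FPKM in siSetdb1. It had the largest fall among the tested members, by 54.2% from 12.9 ± 2.1 to 5.89 ± 1.59 FPKM (log2 fold change -1.02, SE 0.18, limma adjusted p = 0.0135), with siNC replicate 1 highest and siSetdb1 replicate 2 lowest. Bcl2l11, which encodes BIM, a BH3-only protein that binds every pro-survival member, was at 7.66, 7.07 and 8.61 FPKM in siNC and at 5.53, 4.79 and 5.36 FPKM in siSetdb1. The groups did not overlap, and the mean fell by 32.8%, from 7.78 ± 0.77 to 5.23 ± 0.39 FPKM (log2 fold change -0.49, SE 0.09, limma adjusted p = 0.0134). Without siSetdb1 replicate 2 the adjusted p of Bcl2l11 was 0.0575. Bad, a BH3-only protein inactivated by growth factor kinases, was at 22.9, 18.5 and 17.6 FPKM in siNC and 15.8, 16.1 and 19.1 FPKM in siSetdb1, with overlapping groups (log2 fold change -0.20, limma adjusted p = 0.287, and -0.09 without siNC replicate 1). Bik, a BH3-only protein of the endoplasmic reticulum, had 0 to 4 reads per library and could not be compared.

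The exons of Bid and Bad overlap genes on the other strand, and no step that marks strand is named in the protocol. For Bid 17.7% of exon bases lie in Bcl2l13, which was at 11.2 ± 0.5 FPKM in siNC and 11.7 ± 0.3 FPKM in siSetdb1 and did not pass (limma adjusted p = 0.577). For Bad 20.5% lie in Gpr137 (16.3 ± 2.3 and 15.8 ± 0.8 FPKM). Bmf and Bcl2l11 share no exon base with another gene. In mm10 Bid (ENSMUSG00000004446) lies on chromosome 6 at 120891930 to 120916853, Bmf (ENSMUSG00000040093) on chromosome 2 at 118528757 to 118549687, both on the minus strand, and Bcl2l11 (ENSMUSG00000027381) on chromosome 2 at 128126038 to 128162547 on the plus strand.

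The sequences before the transcription start are shown for the 3 BH3-only genes that fell and for 2 of the 4 genes that rose, as examples chosen after base composition was seen. They are the 250 bases before the RefSeq start (GRCm38.p6, the assembly of mm10), 5′ to 3′ on the gene's strand, with capitals at a GC box (GGGCGG), a forkhead motif (GTAAACA) or a TATA box (TATAAA) on either strand.
Bid, chr6:120916825-120917074 (- strand): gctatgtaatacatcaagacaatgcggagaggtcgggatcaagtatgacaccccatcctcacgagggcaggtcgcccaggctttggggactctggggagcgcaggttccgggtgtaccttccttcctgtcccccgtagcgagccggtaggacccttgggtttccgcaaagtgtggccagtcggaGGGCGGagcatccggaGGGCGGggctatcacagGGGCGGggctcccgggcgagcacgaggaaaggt
Bcl2l11, chr2:128125788-128126037 (+ strand): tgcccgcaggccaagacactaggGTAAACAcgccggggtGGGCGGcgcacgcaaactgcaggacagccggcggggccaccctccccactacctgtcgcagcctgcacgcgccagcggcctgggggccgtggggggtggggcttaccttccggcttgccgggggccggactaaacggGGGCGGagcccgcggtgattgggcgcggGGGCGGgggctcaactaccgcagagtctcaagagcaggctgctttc
Bmf, chr2:118549687-118549936 (- strand): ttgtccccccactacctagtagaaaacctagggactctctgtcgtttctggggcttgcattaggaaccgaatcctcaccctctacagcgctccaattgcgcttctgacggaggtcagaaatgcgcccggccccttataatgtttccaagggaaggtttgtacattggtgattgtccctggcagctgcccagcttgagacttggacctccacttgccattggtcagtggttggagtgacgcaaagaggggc
Cflar, chr1:58711241-58711490 (+ strand): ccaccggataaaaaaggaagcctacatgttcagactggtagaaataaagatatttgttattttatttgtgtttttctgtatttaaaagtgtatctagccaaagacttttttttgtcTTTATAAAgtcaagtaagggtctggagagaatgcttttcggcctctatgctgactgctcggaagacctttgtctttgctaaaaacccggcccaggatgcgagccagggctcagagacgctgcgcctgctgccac
Naip1, chr13:100452865-100453114 (- strand): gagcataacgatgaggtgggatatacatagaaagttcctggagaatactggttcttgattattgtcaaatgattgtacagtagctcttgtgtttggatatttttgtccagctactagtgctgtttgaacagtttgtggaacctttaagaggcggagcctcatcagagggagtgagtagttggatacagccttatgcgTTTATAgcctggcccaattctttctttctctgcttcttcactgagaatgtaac
The Bid and Bcl2l11 windows hold 63.6% and 72.0% G and C, with 18 and 24 CpG dinucleotides and 3 GC boxes each, and the Bcl2l11 window holds 1 forkhead motif. The Bmf window holds 54.0% G and C, 8 CpG and none of the 3 motifs. The Cflar and Naip1 windows hold 42.8% and 41.6% G and C, 7 and 3 CpG, no GC box, and a TATA box match. The windows of the other genes that rose, Casp8 (39.6% G and C, 5 CpG) and Naip2 (49.2%, 0 CpG), hold none of the 3 motifs. The Casp8 window (chromosome 1, 58802252 to 58802501) lies inside the gene as deposited, which starts at 58795374. RefSeq gives a second start for Bcl2l11, with 73.2% G and C, 30 CpG, 2 GC boxes and no forkhead motif, and other starts for Bmf with 54.0% and 55.6% G and C, 5 and 3 CpG and no motif. For 34 members RefSeq gave 45 start windows, with a median of 55.6% G and C and 11 CpG, and all 32851 mouse windows had medians of 52.4% and 6 CpG. A GC box is in 21 of the 45 member windows and in 32.7% of all windows, a TATA box in 5 and 12.4%, and a forkhead motif in 3 (Bcl2l11, and both starts of Casp4) and 3.17%. The letters of an AP-1 motif (TGAGTCA), an EGR motif (GCGTGGGCG) and a consensus NF-kB motif, on either strand, are in none of the 45 windows and in 4.46%, 0.536% and 0.14% of all windows. The EGR motif ends in the letters that begin a GC box, so matches of these can overlap. A match describes the letters and no more.

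**Figure D3:**
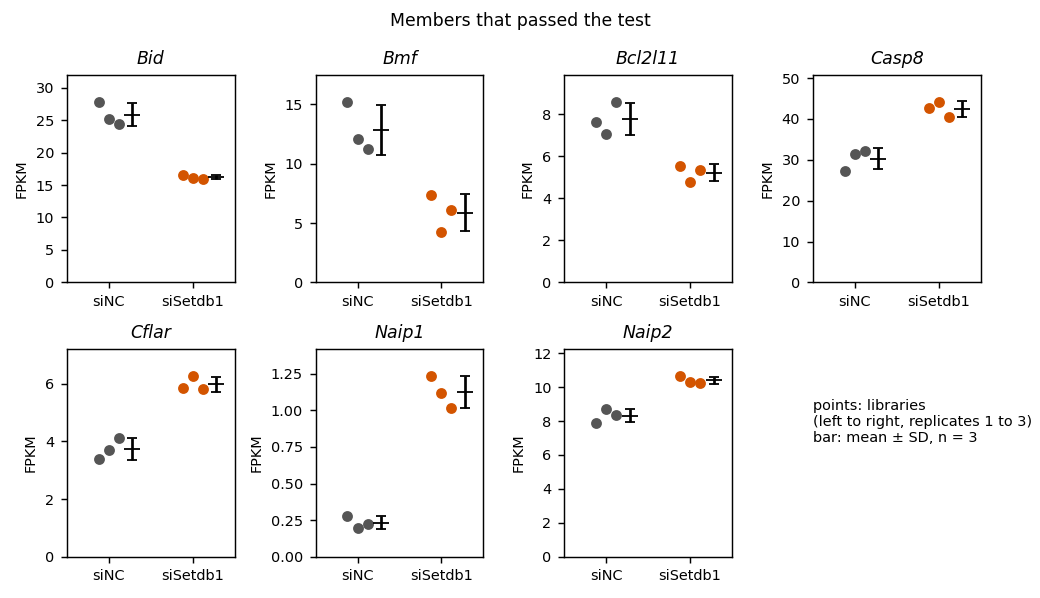
FPKM of the 7 members that passed the test in each library (points, siNC grey, siSetdb1 orange, replicates 1 to 3 from left to right) with mean ± SD (n = 3). In each panel the 3 siSetdb1 points lie on 1 side of the 3 siNC points, with the widest separation in relative terms for Naip1.

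None of the 4 pro-survival BCL2 genes passed the limma test. The unadjusted limma p-values of Bcl2l2 and Mcl1 were 0.0096 and 0.0283, and limma-voom on recovered reads called Bcl2l2 (adjusted p = 0.0363). Unadjusted values under 0.05 also occurred in other roles (Fadd, Bok, Cradd, Gsdmd and Naip6), and the share of all genes under it is not given. Mcl1, a short-lived pro-survival protein on which hepatocytes depend, was at 78.9, 76.8 and 77.8 FPKM in siNC and at 86.3, 86.0 and 88.6 FPKM in siSetdb1. The siSetdb1 libraries all lay above, but the difference of 11.7% (77.8 ± 1.1 against 87.0 ± 1.4 FPKM) did not pass (log2 fold change 0.16, limma adjusted p = 0.108). Bcl2l1, which encodes BCL-XL, the other main pro-survival protein of hepatocytes, was at 92.8, 78.2 and 78.9 FPKM in siNC and 85.7, 78.0 and 82.3 FPKM in siSetdb1, with overlapping groups and a 95% interval of -0.22 to 0.18 for the log2 fold change. Bcl2l2, which encodes BCL-W, was at 3.82, 3.68 and 4.64 FPKM in siNC and 5.93, 5.53 and 4.85 FPKM in siSetdb1, without overlap (log2 fold change 0.35, limma adjusted p = 0.0573). It passed without siNC replicate 3 (limma adjusted p = 0.0408). A stretch of 13.3% of its exon bases lies in the gene model Gm20521 on the same strand. Bcl2, the founding member, was low and overlapped between groups, at 1.19, 1.33 and 1.08 FPKM in siNC and 1.51, 1.27 and 1.23 FPKM in siSetdb1, from 170 to 239 reads per library (limma adjusted p = 0.558).

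Of the pore-forming members, Bak1 was at 25.7 ± 3.7 FPKM in siNC and 25.7 ± 1.5 FPKM in siSetdb1, a log2 fold change of 0.01 (95% interval -0.25 to 0.26). Of its exon bases 25.5% overlap other genes, mainly Ggnbp1 on the other strand, which was near 0 (0.0614 and 0.0570 FPKM). Bok, a BAK relative at the endoplasmic reticulum, was at 2.49, 2.12 and 1.99 FPKM in siNC and 2.64, 2.90 and 2.71 FPKM in siSetdb1. These groups did not overlap and did not pass with all libraries (limma adjusted p = 0.122), and Bok passed without siNC replicate 1 (log2 fold change 0.29, limma adjusted p = 0.0482).

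Summed over the 5 BH3-only members, the level was 73.8, 62.9 and 61.9 FPKM in siNC and 45.3, 41.1 and 46.5 FPKM in siSetdb1. The summed pro-survival genes were at 176.7, 160.0 and 162.4 FPKM in siNC and 179.4, 170.8 and 177.0 FPKM in siSetdb1. The ratio of the pro-survival to the BH3-only sum was 2.39, 2.54 and 2.63 in siNC and 3.96, 4.15 and 3.81 in siSetdb1. With Bbc3 and Pmaip1 added, the BH3-only sum was 105.3, 94.3 and 101.9 FPKM in siNC and 85.0, 79.2 and 90.0 FPKM in siSetdb1. The ratio then was 1.68, 1.70 and 1.59 in siNC and 2.11, 2.16 and 1.97 in siSetdb1. The ratio of the group means was thus 1.58 over the members alone and 1.26 with these 2 genes. Both BH3-only sums and both ratios were separate between the groups and the pro-survival sums were not. This holds for these lists of genes only. Both BH3-only sums contain Bid, Bmf and Bcl2l11, already called lower, so their separation and that of the ratios is no further result. The mean sum of these 3 genes went from 46.45 to 27.3 FPKM, and that of the 5 members from 66.18 to 44.32 FPKM. Bnip3 and Bnip3l, at 84.7 and 63.3 FPKM in siNC and 89.6 and 66.4 FPKM in siSetdb1, are in neither BH3-only sum. These sums describe mRNA only and are weighted by the abundant genes.

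**Figure D4:**
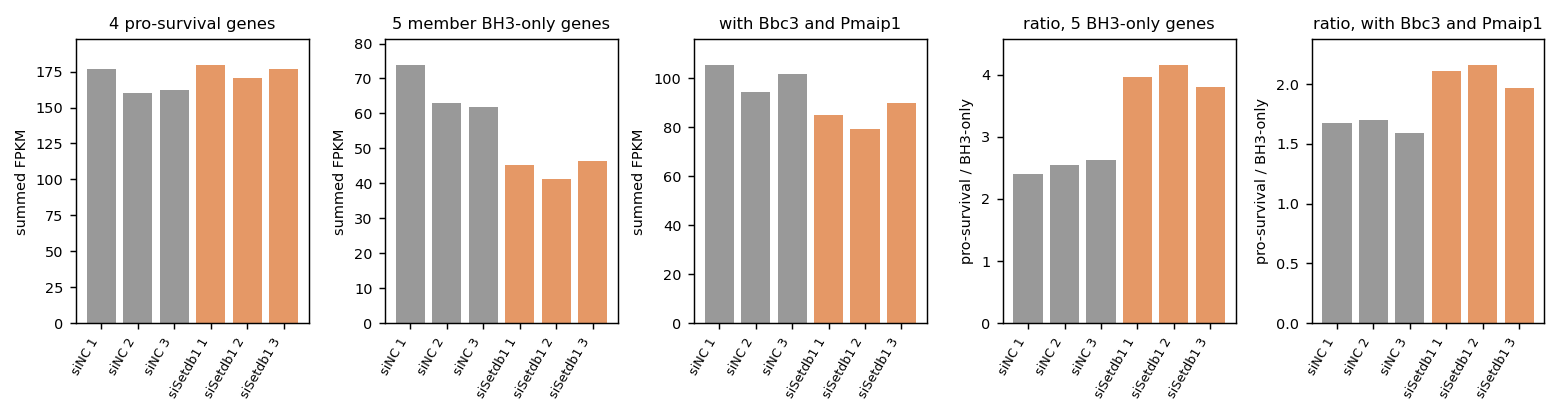
Summed FPKM of the 4 pro-survival genes, of the 5 BH3-only members, of these with Bbc3 and Pmaip1, and the ratio of the pro-survival sum to either BH3-only sum, for each library (bars from 0, siNC grey, siSetdb1 orange). The ratios are 2.39 to 2.63 in siNC and 3.81 to 4.15 in siSetdb1 over the members, and 1.59 to 1.70 and 1.97 to 2.16 with Bbc3 and Pmaip1.

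On the receptor route, Casp8 and Cflar rose together. Casp8, the initiator caspase of death receptors, was at 27.4, 31.4 and 32.2 FPKM in siNC and at 42.6, 44.2 and 40.5 FPKM in siSetdb1. All siSetdb1 libraries were above all siNC libraries, and the mean rose by 40.1%, from 30.3 ± 2.6 to 42.5 ± 1.9 FPKM (log2 fold change 0.48, SE 0.08, limma adjusted p = 0.0104). Without siSetdb1 replicate 2 its adjusted p was 0.0511. Cflar encodes cFLIP, a relative of CASP8 that joins the same complex and restrains it, and it was at 3.39, 3.70 and 4.12 FPKM in siNC and 5.86, 6.26 and 5.80 FPKM in siSetdb1. The groups were separate and the mean rose by 59.9%, from 3.74 ± 0.37 to 5.98 ± 0.25 FPKM (log2 fold change 0.56, SE 0.08, limma adjusted p = 0.00633). With GC and length trends removed the log2 fold change of Cflar was 0.42 (limma adjusted p = 0.00611). The FPKM ratio of Cflar to Casp8 was 0.124, 0.118 and 0.128 in siNC and 0.138, 0.142 and 0.143 in siSetdb1, so that Casp8 had the higher FPKM in each library. The size of this ratio rests on annotated exon lengths of 12669 bases for Cflar and 2893 bases for Casp8. Recovered reads per library were nearer to each other, at 721 to 1355 for Cflar and 1329 to 2185 for Casp8. Both genes lie on chromosome 1, Cflar (ENSMUSG00000026031) at 58711508 to 58758884 and Casp8 (ENSMUSG00000026029) at 58795374 to 58847503 (mm10, both on the plus strand), 36.5 kb apart with no other gene of the table between them. Some sequence is shared with pseudogenes: 4.4% of the distinct 50-base words of Casp8 transcripts occur in the pseudogene Gm20257, which itself rose from 2.60 ± 0.31 to 3.96 ± 0.37 FPKM (limma adjusted p = 0.0219), and 4.3% of those of Cflar occur in Gm9845 (0.291 and 0.412 FPKM).

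The adaptors that bring CASP8 to the receptors did not pass. Fadd, which binds CASP8 directly, was at 4.49, 4.31 and 3.59 FPKM in siNC and 3.10, 3.44 and 2.83 FPKM in siSetdb1. The groups did not overlap, with a difference of -24.4% (log2 fold change -0.31, 95% interval -0.54 to -0.08, limma adjusted p = 0.0702). Of its exon bases 6.1% lie in an antisense transcript, Faddos. Tradd, the adaptor of TNF receptor 1, was at 11.7 ± 1.1 and 11.6 ± 0.7 FPKM (95% interval of the log2 fold change -0.21 to 0.18). Cradd, an adaptor of CASP2, was at 2.70, 2.67 and 2.37 FPKM in siNC and 1.90, 1.85 and 2.34 FPKM in siSetdb1, just without overlap (limma adjusted p = 0.125).

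The other caspases of the list did not pass. Casp9, the initiator of the mitochondrial route, was at 5.33 ± 0.56 and 5.05 ± 0.21 FPKM, and Casp2, an initiator engaged in the PIDDosome, at 5.95 ± 0.13 and 6.41 ± 0.40 FPKM. Casp6, an executioner that cuts lamins, was at 6.06, 5.57 and 6.24 FPKM in siNC and 5.25, 5.21 and 5.28 FPKM in siSetdb1, without overlap (log2 fold change -0.15, limma adjusted p = 0.176). The inflammatory caspase genes Casp1, Casp4 and Casp12 lie side by side on chromosome 9 and were low, at 2.27 ± 0.26, 0.765 ± 0.234 and 0.416 ± 0.020 FPKM in siNC and 1.93 ± 0.31, 0.670 ± 0.106 and 0.329 ± 0.084 FPKM in siSetdb1, with overlapping groups. The values of Casp1 gave no whole reads, and 17 to 65 reads per library stood behind Casp4 and Casp12. These 3 genes and the Naip genes are known from macrophages. Of 8 macrophage markers 6 were measured, with a summed level of 51.7 to 61.1 FPKM in siNC and 37.7 to 44.5 FPKM in siSetdb1, most of it Cd14. The defining leukocyte gene Ptprc was at most 0.0096 FPKM, Fcgr1 was at 0 in 5 of 6 libraries and Csf1r was at 0.152 and 0.079 FPKM. Cd68 fell from 5.27 to 2.49 FPKM (limma adjusted p = 0.012) and Cd14 from 49.0 to 37.8 FPKM (limma adjusted p = 0.0467). Whether any macrophages were present and added to the levels of Casp1, Casp4 and the Naip genes was not tested.

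Among the Naip genes, sensors of bacterial flagellin and secretion needles that act with NLRC4 and carry the BIR domain of IAPs, Naip1 and Naip2 passed and were higher in siSetdb1, and Naip5 and Naip6 did not pass. Of all genes tested 6.87% rose, and no count over the family is read against this, because Naip1 passed the filter only through its siSetdb1 libraries. Naip1 was at 0.280, 0.197 and 0.221 FPKM in siNC and at 1.23, 1.12 and 1.01 FPKM in siSetdb1, from 26, 19 and 21 reads and 118, 106 and 100 reads. It had the largest relative change of the tested members, 4.83-fold by the ratio of means, from 0.233 ± 0.042 to 1.12 ± 0.11 FPKM (log2 fold change 0.78, SE 0.09, limma adjusted p = 0.00318). At this low level the pseudocount sets the log2 value, which was 1.88 with a pseudocount of 0.1 and 2.26 on recovered reads with limma-voom. Naip2 was at 7.90, 8.70 and 8.37 FPKM in siNC and 10.7, 10.3 and 10.3 FPKM in siSetdb1. The groups were separate with a rise of 25.0%, from 8.33 ± 0.40 to 10.4 ± 0.2 FPKM (log2 fold change 0.29, SE 0.07, limma adjusted p = 0.0287). It did not pass in 7 of 14 alternatives: leaving out siNC replicate 2 or 3 gave an adjusted p of 0.0553 or 0.0649, and leaving out siSetdb1 replicate 1, 2 or 3 gave 0.119, 0.0929 or 0.0796. When genes of any level were tested the adjusted p was 0.0671. Naip5 (1.04 to 1.43 FPKM in siNC and 1.30 to 1.55 FPKM in siSetdb1, overlapping) and Naip6 (2.22 ± 0.23 and 2.71 ± 0.15 FPKM, no overlap) did not pass (limma adjusted p = 0.334 and 0.147).

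The 4 Naip genes lie on the minus strand of chromosome 13 in the order Naip2, Naip5, Naip6 and Naip1, with Naip2 (ENSMUSG00000078945) at 100144063 to 100202092 and Naip1 (ENSMUSG00000021640) at 100407764 to 100452869 (mm10). Copies of this family share sequence, and 31.5% of the distinct 50-base words of Naip1 transcripts occur in other genes. The share was 22.5% in the pseudogene Naip3, 12.7% in Naip5, 10.7% in Naip2 and 8.9% in Naip6. The share in other genes was 19.1% for Naip2, 36.9% for Naip5 and 21.5% for Naip6. How reads of such words were assigned is not given in the sources used here, so the split between the copies is uncertain. Naip3, between Naip6 and Naip1, was at 0.0324 and 0.0499 FPKM, well under Naip1 in siSetdb1. Naip2, the copy with the most reads (643 to 892 per library, against 19 to 118 for Naip1), rose as well. Its part in the reads of Naip1 was not tested. Nlrc4, the partner of the NAIP proteins, was at 3.38 and 4.02 FPKM and did not pass (limma adjusted p = 0.187).

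None of the 4 IAP genes passed the limma test on the values as deposited, and siNC replicate 1 was the lowest siNC library in all 4 of them. The unadjusted limma p-values of Xiap and Birc3 were 0.0182 and 0.00854, and limma-voom called Birc3 (adjusted p = 0.032). Xiap, a direct inhibitor of caspases, was at 9.52, 14.5 and 15.5 FPKM in siNC and 19.8, 19.6 and 17.1 FPKM in siSetdb1. The siSetdb1 libraries were all above, with a log2 fold change of 0.51 (SE 0.17, limma adjusted p = 0.0831), and without siNC replicate 1 this became 0.31 (limma adjusted p = 0.0421). With trends in GC content and gene length removed it was 0.28 (limma adjusted p = 0.0121). Birc6, a giant ubiquitin ligase, was at 6.48, 10.1 and 9.86 FPKM in siNC and 11.7, 11.8 and 10.4 FPKM in siSetdb1, without overlap. Its log2 fold change was 0.35 (limma adjusted p = 0.166) and 0.16 without siNC replicate 1 (limma adjusted p = 0.175). Birc2 and Birc3 encode the ligases cIAP1 and cIAP2 of the TNF receptor complex and lie 11.6 kb apart on chromosome 9. Birc3 was at 5.15, 5.45 and 6.51 FPKM in siNC and 4.47, 3.78 and 4.44 FPKM in siSetdb1, without overlap (log2 fold change -0.36, limma adjusted p = 0.0536), and it passed without siNC replicate 1 (-0.42, limma adjusted p = 0.0335). Birc2 was at 5.57, 7.54 and 8.90 FPKM in siNC and 7.02, 6.42 and 6.38 FPKM in siSetdb1, with the siSetdb1 values inside the siNC range (log2 fold change -0.11, limma adjusted p = 0.619, and -0.28 without siNC replicate 1).

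**Figure D5:**
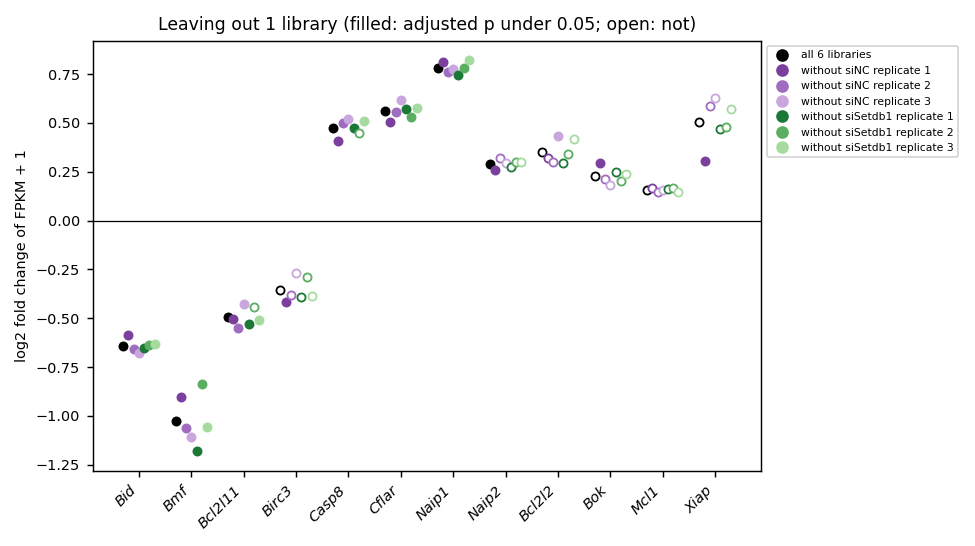
Log2 fold change (FPKM + 1) of the 12 members that passed under any setting tried, with all 6 libraries (black) and without each library in turn (purple, siNC left out; green, siSetdb1 left out); filled points had an adjusted p under 0.05. Bid, Bmf, Cflar and Naip1 are filled in every fit, and Xiap, Bok and Birc3 are filled only without siNC replicate 1. Naip1 reached the filter of these fits only through its siSetdb1 libraries.

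The genes of necroptosis and pyroptosis that were tested did not pass. Ripk1, the kinase that directs TNF receptor signals to survival or death, was at 8.82 ± 0.31 and 9.31 ± 0.69 FPKM, and Mlkl, the membrane pore of necroptosis, at 9.42 ± 0.45 and 10.1 ± 0.5 FPKM. Of the exon bases of Ripk1 9.0% overlap other genes, among them Serpinb6a, which rose from 95.1 to 150.0 FPKM. Ripk3, the kinase that activates MLKL, had 0 reads in each siNC library and 1, 0 and 6 reads in siSetdb1. Gsdmd, the pore of pyroptosis, was at 117.0, 101.1 and 95.5 FPKM in siNC and 92.5, 88.9 and 89.1 FPKM in siSetdb1. All siSetdb1 libraries lay below, and the difference of -13.7% did not pass (log2 fold change -0.21, limma adjusted p = 0.144). Without siNC replicate 1 the log2 fold change was -0.12 (limma adjusted p = 0.188), and with GC and length trends removed it was -0.09 (limma adjusted p = 0.288).

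None of the tested genes of proteins released from mitochondria passed, and their groups overlapped. Cycs, which encodes cytochrome c, was at 38.1, 43.6 and 39.8 FPKM in siNC and 33.9, 40.4 and 34.9 FPKM in siSetdb1. Of its distinct 50-base words 26.1% occur in other genes, mainly Gm10053, which was at 24.4 ± 3.6 and 23.2 ± 3.5 FPKM. Htra2, a protease that antagonises IAPs, was at 13.0 ± 1.7 and 13.4 ± 1.1 FPKM, and the nuclease gene Endog at 6.58 ± 1.32 and 5.53 ± 1.28 FPKM. Diablo, which encodes the IAP antagonist SMAC, was listed at 0.306 ± 0.102 and 0.375 ± 0.133 FPKM, 21 to 51 reads per library. Other genes share 40.9%, 43.7% and 35.7% of the exon bases of Diablo, Htra2 and Endog, so that reads there may have been counted for another gene or for none.

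Of 63 other genes of cell death, listed by function, 57 had values and 40 were tested, of which 3 rose, 4 fell and 33 did not pass (7.5% and 10.0%, against 6.87% and 8.27% of all genes tested). Of the death receptors, Tnfrsf10b, the TRAIL receptor, fell from 6.49 ± 0.45 to 4.06 ± 0.19 FPKM (log2 fold change -0.57, limma adjusted p = 0.00484) and Fas from 8.16 ± 1.17 to 5.24 ± 0.61 FPKM (-0.55, limma adjusted p = 0.0202), while Tnfrsf1a (46.0 and 41.6 FPKM) and Tnfrsf21 (8.19 and 7.41 FPKM) did not pass. The ligand genes Fasl and Tnf were near 0 in all libraries. Dffa and Dffb, which encode the inhibitor and the nuclease that caspases release to cut DNA, rose from 4.46 ± 0.56 to 7.41 ± 0.18 FPKM (log2 fold change 0.63, limma adjusted p = 0.00542) and from 1.23 ± 0.12 to 1.97 ± 0.23 FPKM (0.41, limma adjusted p = 0.0298). Tnfaip3, a ubiquitin-editing enzyme that curbs TNF receptor signals, fell from 21.1 ± 2.8 to 14.4 ± 2.0 FPKM (-0.53, limma adjusted p = 0.031), and Ikbkg, a subunit of the IKK complex, rose from 12.7 ± 0.9 to 15.7 ± 0.9 FPKM (0.29, limma adjusted p = 0.0456). Bax, the second pore-forming protein beside BAK, was at 41.9, 37.6 and 33.0 FPKM in siNC and 30.3, 31.4 and 29.4 FPKM in siSetdb1, without overlap (log2 fold change -0.29, limma adjusted p = 0.0744). Leaving out 1 library ended 4 of these calls. Fas did not pass without siSetdb1 replicate 1 or 2 (highest limma adjusted p = 0.0789), and Tnfaip3 not without siNC replicate 1 or 3 or siSetdb1 replicate 2 or 3 (highest 0.0971). Of the fits with 1 library left out, Dffb passed only in that without siNC replicate 1 (highest limma adjusted p = 0.109) and Ikbkg only in that without siNC replicate 3 (highest 0.169). Dffa and Tnfrsf10b passed whichever library was left out. Without siNC replicate 1, 4 of the other genes rose, and these include genes that did not pass with all 6 libraries.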

How the data were processed

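Polyadenylated RNA of 6 samples, 3 per group, was read as single-end reads of 50 bases on a BGISEQ instrument, per the labels' protocols. Per the submitters' processing notes, HISAT2 2.0.4, Bowtie2 2.2.5, RSEM 1.2.12, DESeq2 1.4.5 and the build mm10 were used, with no role or order given. The deposited values were taken as FPKM made by the authors, because the headers name no unit and value times exon length (GENCODE M21, GRCm38) gave whole reads within 0.01 for 98.6% of genes. Totals recovered in this way ran from 16790582 to 17835060 reads. The filter kept genes at 0.5 FPKM or above in 3 libraries, and these were fitted on log2(FPKM + 1) with limma 3.58.1 (R 4.3.3; intensity-dependent, robust prior variance; group as the only term), and checked on simulated data. Exon overlap and shared 50-base words came from GENCODE M21, and promoters from RefSeq (GRCm38.p6). All members are named. Of the other cell-death genes, those that passed are named, except for a result not reported here, and Bax, Nlrc4, Bbc3, Pmaip1, Tnfrsf1a, Tnfrsf21, Fasl and Tnf were chosen after their values were seen. The members, lists and tests were chosen with earlier results of these data known. Alternatives were another pseudocount, other filters, scaling, a replicate block, trends on reads, limma-voom, GC and length correction, and each library left out.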

Additional observations from a re-analysis of the deposited data

How the results depend on the processing

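Under all 14 alternatives Bid, Bmf, Cflar, Naip1 and Setdb1 kept their direction and passed, with an adjusted p of at most 0.0181, 0.0471, 0.0374, 0.0222 and 0.0133, and no member or named gene reversed a call. For Naip1 this is no separate support, because in the filtered fits it was kept only through its siSetdb1 libraries. With no filter its limma adjusted p was 0.0112. Members that rose numbered 8 with GC and length trends removed (4 as reported; Bcl2l2, Bok, Mcl1 and Xiap were added), and this was 2 to 6 when 1 library was left out; members that fell were 2 to 4. Birc3 also passed at a filter of 1 FPKM, with a variance trend on reads and with limma-voom, and Bcl2l2 with median-ratio scaling and with both read-based fits. Other cell-death genes that rose were 1 with no filter and 1 with the replicate block, and 1 to 4 with 1 library left out, and those that fell were 2 with no filter and 2 to 4 with 1 library left out. Of all genes, 460 rose and 430 fell with no filter, 480 and 535 with the replicate block, and 355 to 1101 and 326 to 1075 with 1 library left out, and 1433 rose with GC and length trends removed. The labels do not say whether the replicate numbers mark pairs. Deviations from the group means correlated at -0.157, 0.167 and -0.172 for same-numbered samples and at -0.204 to 0.283 for the others. With 3 samples per group these values cannot decide it. With the block Naip2 did not pass (limma adjusted p = 0.0833), nor did Dffb, Tnfaip3 and Ikbkg. Depth limits Ripk3, Bik, Diablo, Casp12 and Casp4, which had at most 65 reads in a library.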
